A study of Mus musculus with 45 samples.

Results

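The genes described here are 9 members of the transforming growth factor beta (TGF-beta) pathway: the ligands Tgfb1, Tgfb2 and Tgfb3, the latency and activation genes Ltbp1 and Itgb8, the receptors Tgfbr1, Tgfbr2 and Tgfbr3, and the inhibitor Smad7. They were chosen by symbol, and all 9 of 9 were found among the 47729 gene rows of both expression tables. RNA was sequenced from 45 tumours of CT26, an established mouse colon carcinoma line, grown under the skin of mice on a BALB/c background that carry human PD-1 and human TIGIT, both checkpoint receptors of lymphocytes, as a double knock-in (HuGEMM). Every animal, controls included, carried both knock-in genes, so that antibodies against the human receptors could bind. Treatment began on day 8, at a tumour size of 90 to 100 mm3, with injections into the abdomen given on a schedule shared by all groups.

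There were 15 groups of 3 tumours in 2 experiments that were tabulated separately. Experiment T2106 held 18 tumours in 6 groups. They were saline vehicle, the single antibodies HLX53 and serplulimab, serplulimab with HLX53 at 5 or at 10 mg/kg, and tiragolumab with pembrolizumab. Experiment T2215 held 27 tumours in 9 groups: vehicle, serplulimab, pembrolizumab, HLX53, tiragolumab, and the 4 pairings of serplulimab or pembrolizumab with HLX53 or tiragolumab. Serplulimab and pembrolizumab are antibodies against PD-1. HLX53 and tiragolumab bind TIGIT. All antibodies were given at 10 mg/kg other than the lower HLX53 dose in T2106. The model rests on 1 transplanted line placed under the skin rather than in the colon. The labels name the tissue by its carcinoma cells, but host-cell markers were present in every group: summed macrophage marker expression in vehicle tumours of T2106 was 968 to 1400 FPKM.

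TGF-beta ligands are secreted as latent complexes. The ligand's own propeptide holds it inactive, latent TGF-beta binding proteins such as the product of Ltbp1 anchor the complex to the matrix, and integrins such as the one containing the Itgb8 subunit release the active ligand. Active ligand binds the type II receptor (Tgfbr2), which phosphorylates the type I receptor (Tgfbr1). The type I receptor phosphorylates Smad2 and Smad3, which enter the nucleus with Smad4. The co-receptor betaglycan (Tgfbr3) presents ligand, mainly TGF-beta 2, and Smad7 is an inhibitor made in response to the signal. In tumours the pathway is best known for its action on fibroblasts and matrix and for restraining T cells.

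Ltbp1 and Tgfbr2 varied most across the tumours among the members above 0.5 FPKM in all of them, and in opposite directions, so the sequences before their transcription start sites are shown. They come from RefSeq (GRCm38.p6), 5′ to 3′ along the gene's strand, and cover the 250 bases before each start. Capitals mark CAGAC, read on either strand (GTCTG on the other), the core of the Smad binding element, and TGACGTCA, the cyclic AMP response element. The 2 motifs share no base in these windows.

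Tgfbr2, chr9:116175364-116175613, minus strand: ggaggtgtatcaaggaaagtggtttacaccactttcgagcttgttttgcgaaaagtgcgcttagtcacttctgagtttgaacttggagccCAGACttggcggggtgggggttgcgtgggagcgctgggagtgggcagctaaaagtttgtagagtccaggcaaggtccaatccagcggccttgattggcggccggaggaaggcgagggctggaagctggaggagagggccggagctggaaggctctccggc
Ltbp1, first start, chr17:75005279-75005528, plus strand: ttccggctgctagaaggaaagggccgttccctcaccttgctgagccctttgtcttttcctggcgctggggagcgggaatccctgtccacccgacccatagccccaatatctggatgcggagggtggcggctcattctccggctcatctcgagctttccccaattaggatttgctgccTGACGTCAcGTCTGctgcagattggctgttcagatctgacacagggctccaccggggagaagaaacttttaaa
Ltbp1, second start, chr17:75178531-75178780, plus strand: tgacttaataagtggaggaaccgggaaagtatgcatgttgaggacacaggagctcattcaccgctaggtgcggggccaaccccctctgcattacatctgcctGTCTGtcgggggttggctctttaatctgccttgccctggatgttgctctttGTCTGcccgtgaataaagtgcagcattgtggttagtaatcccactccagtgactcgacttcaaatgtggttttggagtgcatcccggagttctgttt

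The Tgfbr2 window held 1 CAGAC match, 160 bases before the start. The first Ltbp1 window held 1 CAGAC match at 64 bases and 1 TGACGTCA match at 73 bases before the start, while the second held 2 CAGAC matches, at 148 and 97 bases. Across 32851 promoters of the same length, 42.2% held CAGAC and 1.55% held TGACGTCA on either strand, so the first motif is common. Of the 6 members with an entry that was read, TGACGTCA was found only before the first Ltbp1 start. The expression values are per gene and do not separate the transcripts from the 2 Ltbp1 starts. A match is a stretch of letters and not a measured binding site.

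Libraries differed within groups. In T2106 the first principal component held 69.5% of the variance. On it the 3 tumours given serplulimab with HLX53 at 10 mg/kg scored 54.2 to 110.4, replicate 2 at 5 mg/kg scored 122.8, serplulimab replicate 1 scored 46.5 and replicate 1 at 5 mg/kg scored 14.6, while the other 12 scored from −48.3 to −23.9. Marker scores are the mean log2 of FPKM + 0.5 over the listed genes that reached 0.5 FPKM in at least 3 tumours of the experiment. Replicate 2 at 5 mg/kg also had skeletal muscle transcripts, with a score of 3.35 against 0.09 to 0.91 in the other T2106 tumours. In T2215, serplulimab replicate 1, pembrolizumab with tiragolumab replicate 3 and serplulimab with tiragolumab replicate 2 had muscle scores of 10.23, 4.17 and 2.44. The last also had a keratinocyte score of 3.82, over 4 of 10 listed genes. Muscle scores used 3 of 10 listed genes in T2106 and 9 of 10 in T2215, so they cannot be set against each other between experiments. Between 12918 and 14448 genes per tumour reached 0.5 FPKM. The number of reads behind each value is unknown. Nothing beyond separate tumour identifiers says how independent the 3 tumours of a group were. In bulk tissue, fewer cells of a type and less RNA per cell cannot be told apart.

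Expression per length (FPKM) placed the members in nearly the same order in both experiments. Median levels over the tumours of T2106 and T2215 were 74.6 and 80.6 for Ltbp1, 56.5 and 52.6 for Tgfb1, 27.2 and 32.2 for Tgfbr2, and 19.1 and 19.0 for Tgfbr3. Tgfbr1 (11.5 and 10.0), Tgfb3 (9.45 and 8.75) and Smad7 (5.84 and 7.56) followed. Tgfb2 (0.214 and 0.216) and Itgb8 (0.226 and 0.215) were lowest and changed places between the experiments. Ranges of neighbours in this order overlapped in each experiment, with 1 exception: the lowest Smad7 tumour (3.64 and 4.05 FPKM) was above the highest Tgfb2 tumour (2.57 and 1.62 FPKM). The 2 highest members overlapped too, with Ltbp1 from 5.88 to 87.5 and Tgfb1 from 35.1 to 93.2 FPKM in T2106. Of the 9 members, 8 passed the filter of 0.5 FPKM in at least 3 tumours in each experiment. Itgb8 did not: it reached 0.5 FPKM in 0 tumours of T2106 and in 1 of T2215, serplulimab with HLX53 replicate 2 at 0.636 FPKM.

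**Figure D1:**
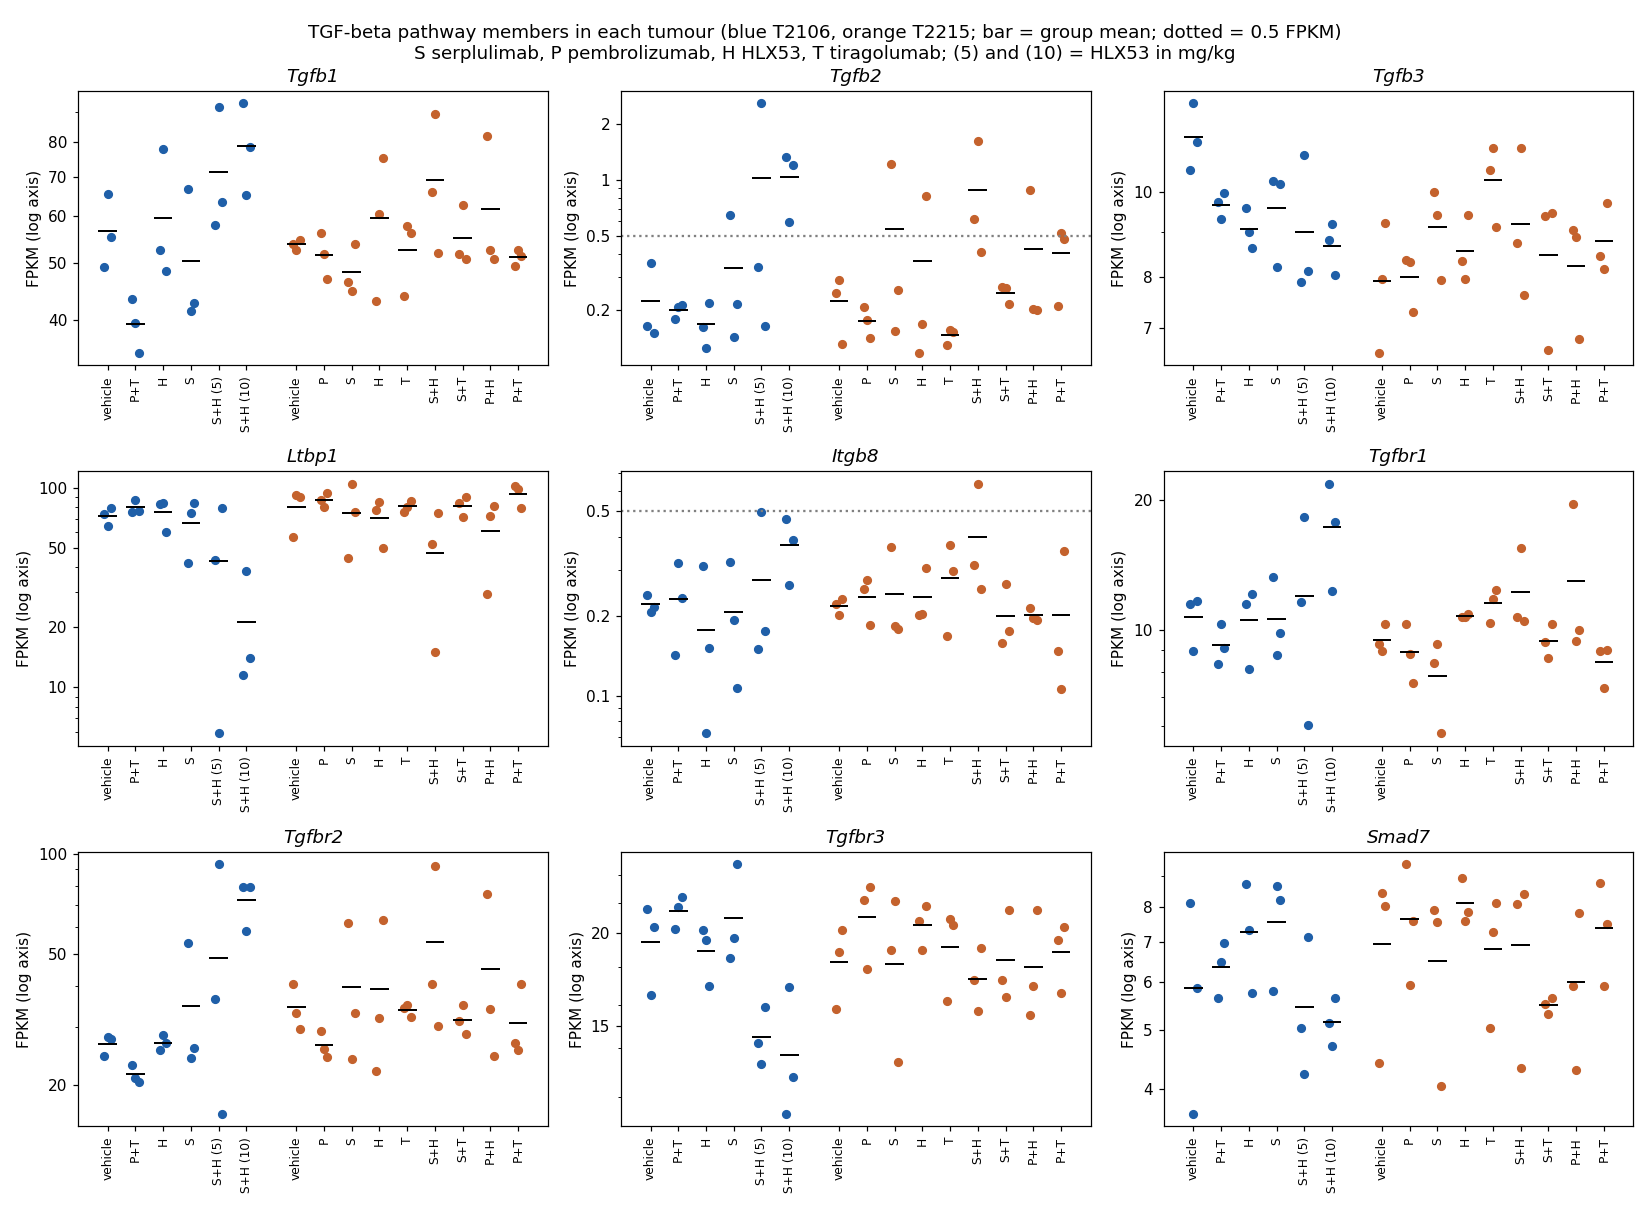
FPKM of each member (log axis) in every tumour of the 15 groups, T2106 in blue and T2215 in orange, with a bar at the group mean and a dotted line at 0.5 FPKM for Tgfb2 and Itgb8. The T2106 tumours given serplulimab with HLX53 at 10 mg/kg sit at 11.5 to 38.4 FPKM for Ltbp1 and at 58.5 to 79.6 for Tgfbr2, and single tumours of other groups reach the same levels.

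Spread differed between members. The standard deviation of log2(FPKM + 0.5) over all tumours of T2106 was 1.12 for Ltbp1, 0.75 for Tgfbr2 and 0.65 for Tgfb2, against 0.18 for Tgfb3, 0.30 for Tgfbr3 and 0.33 for Smad7. In T2215 it was 0.60 for Ltbp1, 0.51 for Tgfbr2 and 0.47 for Tgfb2, against 0.19 for both Tgfb3 and Tgfbr3. Ltbp1, Tgfbr2 and Tgfb2 were thus the 3 most variable members in each experiment.

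The comparison in which members passed the test was serplulimab with HLX53 at 10 mg/kg against controls of T2106. Against vehicle, 4 members passed (limma, adjusted p under 0.05): Tgfbr2 rose, and Ltbp1, Tgfbr3 and Tgfb3 fell. In this comparison 44.0% of the 15070 genes tested passed, 23.4% higher and 20.6% lower, so 4 of 8 tested members is close to the share over all genes. The median log2 difference over all genes was −0.04. No member's call held in all 6 refits that each left out 1 of the tumours compared. Without replicate 1 or replicate 3 of the combination 0 members passed, without any 1 vehicle tumour 1 passed, and without combination replicate 2 the count was 6. Direction held in all 6 refits for each of the 4. With no filter on low values 0 members passed against vehicle. For these refits, and for those below, the share of all genes passing is not given. Nothing particular to the members or the other pathway genes is read from such counts.

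Tgfbr2 (chr9:116084293-116175360 on GRCm38, minus strand), the type II receptor that starts signalling, stood at 24.6, 27.9 and 27.6 FPKM in the 3 vehicle tumours of T2106 and at 79.6, 58.5 and 79.6 FPKM under serplulimab with HLX53 at 10 mg/kg. The groups did not overlap, and 31.6% of the 15070 genes tested likewise had all 3 combination tumours above all 3 vehicle tumours. The means were 26.7 ± 1.81 and 72.6 ± 12.2 (SD, n = 3 each). On the log2(FPKM + 0.5) scale, which is used for every difference here and understates changes of low genes, the difference was 1.42 ± 0.44 (SE; 95% interval 0.48 to 2.35; limma, adjusted p = 0.0223). Leaving out 1 tumour at a time gave 1.34 to 1.56, with adjusted p from 0.0227 to 0.0844.

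Ltbp1 (chr17:75005568-75392512, plus strand, 386.9 kb), which tethers latent ligand to the matrix, stood at 74.0, 64.7 and 79.1 FPKM in the vehicle tumours and at 11.5, 38.4 and 14.0 FPKM in the combination. All 3 combination tumours were below the lowest vehicle tumour, and replicate 2 was the closest to it. The share of all genes lying wholly below vehicle was not computed, so nothing particular to Ltbp1 is read from this. The means were 72.6 ± 7.3 and 21.3 ± 14.9 FPKM (SD, n = 3 each), a log2 difference of −1.94 ± 0.67 (95% interval −3.38 to −0.50; limma, adjusted p = 0.0334). Leaving out 1 tumour at a time gave −2.46 to −1.61, with adjusted p from 0.0163 to 0.132.

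Tgfbr3 (chr5:107106570-107289629, minus strand), the co-receptor betaglycan, stood at 21.6, 16.5 and 20.4 FPKM in vehicle tumours and at 11.4, 16.9 and 12.8 FPKM in the combination. The groups overlapped, since combination replicate 2 lay above vehicle replicate 2. The log2 difference was −0.50 ± 0.15 (95% interval −0.82 to −0.17; limma, adjusted p = 0.0217), with adjusted p from 0.00876 to 0.109 when single tumours were left out.

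Tgfb3 (chr12:86056745-86079041, minus strand), the third of the ligands, stood at 10.6, 12.6 and 11.4 FPKM in vehicle tumours and at 8.81, 9.20 and 8.04 FPKM in the combination. The groups did not overlap, but the difference was small, −0.39 ± 0.13 on the log2 scale (95% interval −0.67 to −0.11; limma, adjusted p = 0.0297), with adjusted p from 0.0312 to 0.104 when single tumours were left out. In this experiment the vehicle tumours were the highest group for Tgfb3: serplulimab (8.22 to 10.3 FPKM), HLX53 (8.63 to 9.58) and pembrolizumab with tiragolumab (9.31 to 9.96) also lay below all of them. The share of all genes lying wholly below vehicle was not computed. In T2215 the vehicle tumours were the lowest group by mean, at 6.56, 7.97 and 9.22 FPKM.

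The other ligands did not pass against vehicle. Tgfb1 (chr7:25687002-25705077, plus strand), the main ligand of immune cells, stood at 49.1, 65.3 and 55.2 FPKM in vehicle tumours and 93.2, 65.1 and 78.6 FPKM in the combination (log2 difference 0.47; limma, adjusted p = 0.101). Tgfb2 (chr1:186622792-186705989, minus strand) stood at 0.164, 0.360 and 0.151 FPKM in vehicle tumours and 1.32, 0.593 and 1.20 FPKM in the combination, without overlap. Its log2 difference was 1.06 ± 0.43 (limma, adjusted p = 0.0552). Of all genes tested, 31.6% lay wholly above vehicle in the same way. Tgfb2 reached 0.5 FPKM in only 5 tumours of T2106 and 6 of T2215, so its place among the tested genes rests on the groups in which it was high.

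Of the remaining members, Tgfbr1 (chr4:47353222-47414931, plus strand), the type I receptor kinase, stood at 11.5, 8.95 and 11.7 FPKM in vehicle tumours and 21.8, 12.3 and 17.8 FPKM in the combination. The groups did not overlap (log2 difference 0.64; limma, adjusted p = 0.101). Smad7 stood at 8.13, 3.64 and 5.88 FPKM in vehicle tumours and 5.14, 4.71 and 5.65 FPKM in the combination, with all 3 treated tumours inside the vehicle range (log2 difference −0.11; limma, adjusted p = 0.721). Itgb8 (chr12:119158022-119238802, minus strand), below the filter and not tested, stood at 0.242, 0.207 and 0.218 FPKM against 0.469, 0.262 and 0.391 FPKM. These are low levels, with the combination tumours all above the vehicle tumours. The same held for 31.6% of the 15070 genes tested, so nothing particular to Tgfbr1 or Itgb8 is read from it.

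The combination at 10 mg/kg was also compared with its single antibodies and with the other PD-1 and TIGIT pair of T2106. These comparisons share the same 3 combination tumours and are not independent of the comparison with vehicle. Against HLX53 alone, 3 of 8 members passed (limma, adjusted p under 0.05) where 26.8% of all genes did (8.69% lower): Ltbp1 by −2.0 (adjusted p = 0.0438), Tgfbr2 by 1.40 (0.0354) and Tgfbr3 by −0.47 (0.0403). Ltbp1 stood at 83.5, 84.4 and 60.4 FPKM under HLX53 alone and Tgfbr2 at 25.6, 28.4 and 26.8 FPKM, which overlapped or bordered those of vehicle tumours. The count was 0 without any 1 HLX53 tumour, without combination replicate 1 or 3, and with no filter on low values.

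Against pembrolizumab with tiragolumab, 6 of 8 members passed where 42.6% of all genes did (25.8% higher, 16.8% lower). One of the 6, Tgfb2, met the filter only because the combination tumours were high, so its call is given as a description. Tgfb1 was higher in the combination by 0.99 ± 0.23 (limma, adjusted p = 0.0091). Its values were 93.2, 65.1 and 78.6 FPKM against 43.4, 39.4 and 35.1 FPKM, without overlap. The share of all genes without overlap there was not computed. Tgfbr2 was higher by 1.72 (0.0114), Tgfbr1 by 0.84 (0.0434) and Tgfb2 by 1.10 (0.04998), and Tgfbr3 was lower by a log2 difference of −0.64 (0.00933) and Ltbp1 by −2.08 (0.0264). Tgfb1 was under the threshold in all 6 refits that left out 1 tumour, and Tgfbr2 and Tgfbr3 each in 5. The count of members fell to 1 without combination replicate 1 and to 3 without its replicate 3 or any 1 tumour given pembrolizumab with tiragolumab, and was 3 with no filter on low values.

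Against serplulimab alone, 0 of 8 members passed where 1.59% of all genes did (1.41% higher), with 5408 of 15070 genes under an unadjusted p of 0.05. Ltbp1 differed by −1.77 (limma, adjusted p = 0.0941) and Tgfbr2 by 1.14 (0.0956). Serplulimab tumours were spread: Ltbp1 stood at 42.0, 75.3 and 84.0 FPKM and Tgfbr2 at 54.0, 24.2 and 26.0 FPKM, with replicate 1 nearest the combination on both genes. Without serplulimab replicate 1 the count was 3 members, without combination replicate 2 it was 1, and without the 5 mg/kg tumour with muscle transcripts, which belongs to neither group but enters the shared spread, it was 5.

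At 5 mg/kg HLX53 with serplulimab the 3 tumours differed widely. Ltbp1 stood at 43.8, 5.88 and 79.7 FPKM and Tgfbr2 at 36.5, 93.1 and 16.4 FPKM in replicates 1, 2 and 3, so this group held the lowest Ltbp1 value and both the highest and the lowest Tgfbr2 value of T2106. Against vehicle 0 of 8 members passed where 1.02% of genes did (0.352% higher, 0.670% lower), with 4331 genes under an unadjusted p of 0.05. The differences were −1.36 for Ltbp1 (limma, adjusted p = 0.192) and 0.52 for Tgfbr2 (0.406). Without replicate 3 of this group 4 members passed. Tgfbr3, at 14.2, 13.3 and 15.9 FPKM, was below every vehicle tumour (log2 difference −0.41; adjusted p = 0.117), and the share of all genes doing so was not computed.

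Between the HLX53 doses beside serplulimab, 10 minus 5 mg/kg, 0 members passed where 0.139% of genes did, with 1653 genes under an unadjusted p of 0.05. The 95% interval of the log2 difference was −0.03 to 1.83 for Tgfbr2 and −2.02 to 0.86 for Ltbp1, so differences of the size seen against vehicle lay inside both. Without the 5 mg/kg tumour with muscle transcripts 4 members passed.

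None of the single antibodies of T2106, and not pembrolizumab with tiragolumab, had a member that passed against vehicle (limma). The shares over all genes were 0% for serplulimab (1280 genes under an unadjusted p of 0.05), 0.00664% for HLX53 (582) and 0% for pembrolizumab with tiragolumab (774). Pembrolizumab with tiragolumab had Tgfb1 at 43.4, 39.4 and 35.1 FPKM, below all 3 vehicle tumours (log2 difference −0.52; adjusted p = 0.949). Tgfbr2, at 23.1, 21.1 and 20.5 FPKM, and Tgfb3 were likewise below them. The share of all genes lying wholly below vehicle was not computed, so nothing particular to the members is read from this.

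**Figure D2:**
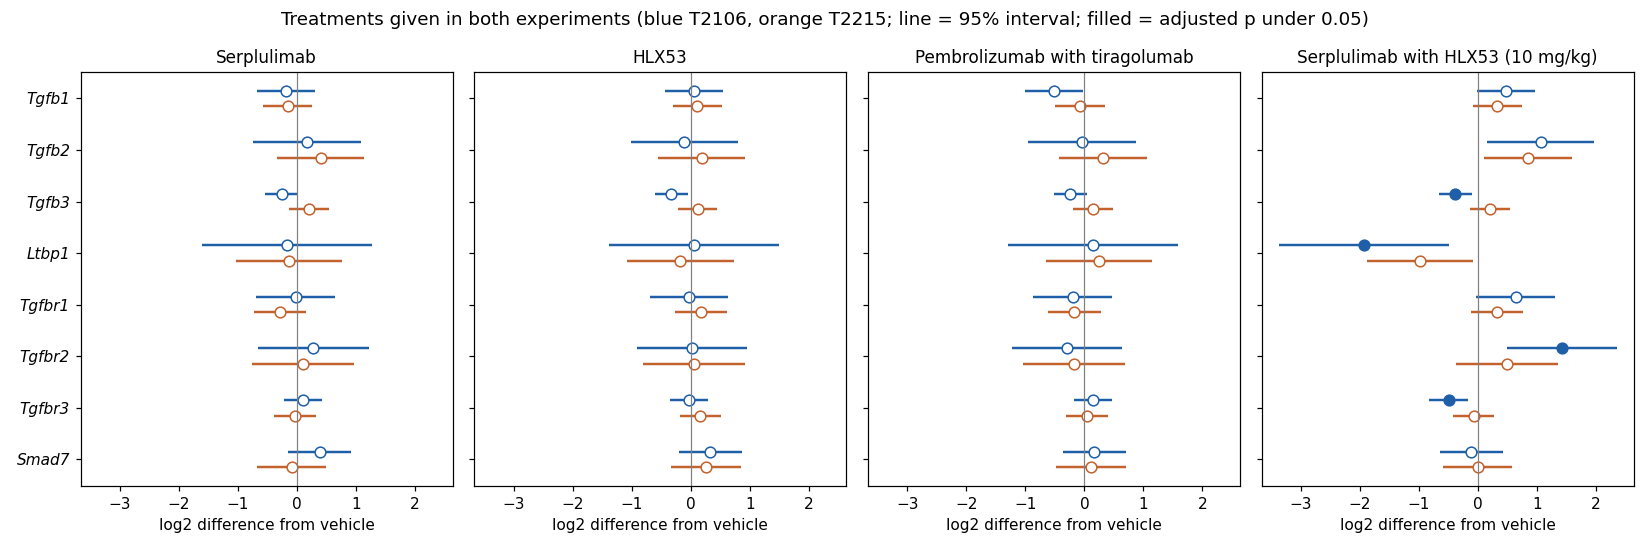
Log2 difference from vehicle of the 8 tested members (95% interval, filled where the limma adjusted p was under 0.05) for the 4 treatments given in both experiments, T2106 in blue and T2215 in orange. Filled points appear only for serplulimab with HLX53 at 10 mg/kg in T2106, where Ltbp1 lies at −1.94 and Tgfbr2 at 1.42, against −0.99 and 0.50 in T2215.

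In T2215, 0 of 8 members passed in each of the 13 comparisons (limma, adjusted p under 0.05). Background shares were 0% in 9 comparisons. They were 0.00671% for pembrolizumab with HLX53 against vehicle and 0.0134% for pembrolizumab with tiragolumab against vehicle, for any TIGIT antibody against none, and for serplulimab with HLX53 against pembrolizumab with tiragolumab. Counts of genes under an unadjusted p of 0.05 ran from 140 for tiragolumab to 3964 for the HLX53 arms against the tiragolumab arms. The comparisons with vehicle share its 3 tumours, and the pooled ones reuse the same tumours.

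Serplulimab with HLX53 at 10 mg/kg was given in both experiments, which were fitted separately. In T2215 the combination tumours had Ltbp1 at 52.4, 15.1 and 75.1 FPKM, against 57.0, 92.6 and 90.8 FPKM in vehicle tumours. Tgfbr2 stood at 40.5, 91.9 and 30.3 FPKM against 40.4, 33.1 and 29.7 FPKM. Replicate 2 held the lowest Ltbp1 and the highest Tgfbr2 value of the 27 tumours, replicate 1 lay just outside the vehicle range on both, and replicate 3 inside it. Log2 differences were −0.99 ± 0.43 for Ltbp1 (limma, adjusted p = 0.256), 0.50 ± 0.42 for Tgfbr2 (0.466) and 0.84 ± 0.36 for Tgfb2 (0.249).

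Tgfb2, Itgb8 and Tgfbr1 were the members whose combination tumours all lay above vehicle in both experiments. Of the 14646 genes tested in both, 6.51% did the same (31.6% of genes tested in T2106 and 8.11% in T2215), and nothing particular to the members is read from it. Tgfbr1 in T2215 stood at 10.7, 15.5 and 10.5 FPKM against 9.26, 8.93 and 10.3 FPKM (log2 difference 0.33; limma, adjusted p = 0.373). Tgfb2 there stood at 0.616, 1.62 and 0.409 FPKM against 0.246, 0.291 and 0.132 FPKM, and Itgb8 at 0.313, 0.636 and 0.253 FPKM against 0.203 to 0.233 FPKM. Tgfb2 and Itgb8 are close to the filter. Tgfb3, which fell in T2106, had a difference of 0.20 in T2215, and Tgfbr3 one of −0.07. Whether the effects differ between the experiments was not tested, since the experiments were tabulated and fitted separately.

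Single tumours of other T2215 groups resembled that replicate. Pembrolizumab with HLX53 had Ltbp1 at 29.3, 72.2 and 81.0 FPKM and Tgfbr2 at 76.0, 34.0 and 24.5 FPKM, with replicate 1 apart on both, and its Tgfbr1 value of 19.6 FPKM was the highest of the experiment. HLX53 alone had Ltbp1 at 77.8, 50.3 and 84.8 FPKM and Tgfbr2 at 22.1, 63.3 and 32.0 FPKM, with replicate 2 apart. Serplulimab alone had Ltbp1 at 44.5, 105 and 75.8 FPKM and Tgfbr2 at 61.7, 24.1 and 33.1 FPKM, with replicate 1, the tumour with the strongest muscle transcripts, apart. In each of these groups the tumour lowest in Ltbp1 was the highest in Tgfbr2.

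In the pooled comparisons of T2215, Ltbp1 was lower in the HLX53 arms than in the tiragolumab arms by a log2 difference of −0.67 (limma, unadjusted p = 0.0143) and lower under serplulimab with HLX53 than under pembrolizumab with tiragolumab by −1.23 (unadjusted p = 0.0097). Tgfbr1 differed by 0.29 between tumours given any TIGIT antibody and the others (unadjusted p = 0.0135). Tgfb3 under tiragolumab, at 10.6, 11.2 and 9.11 FPKM, differed from vehicle by 0.37 (unadjusted p = 0.0329). None of these passed after adjustment over the 14914 genes tested. In the same order of comparisons, 3964, 3180, 987 and 140 genes had an unadjusted p under 0.05 (limma). The values given here were picked from all member tests of T2215, so nothing particular to the members is read from them.

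Beyond the members, 60 other genes of the pathway were listed by role and 59 were tested. Against vehicle in T2106, the combination at 10 mg/kg had 29 higher and 7 lower of 59 (limma, adjusted p under 0.05), where 23.4% of all genes were higher and 20.6% lower. The median log2 difference was 0.71 against −0.04 over all genes. The list was chosen with earlier results of these data known. Nothing particular to the pathway is therefore read from these counts or those below. By role, latency and activation genes had 10 higher and 2 lower of 15, receptors and co-receptors 4 higher of 5, Smad signalling genes 2 lower of 4, inhibitors 1 higher of 10, and target genes 14 higher and 3 lower of 25. The count passing was 3 without combination replicate 1, 5 without its replicate 3 and 23 without vehicle replicate 1.

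Among latency genes, Fbn1, which encodes the fibrillin that LTBPs bind, stood at 0.979, 1.07 and 2.84 FPKM in vehicle tumours and 15.7, 33.9 and 35.8 FPKM in the combination, lowest to highest (log2 difference 3.78 ± 0.97; limma, adjusted p = 0.0132). Thbs1, the activator thrombospondin 1, rose from a mean of 8.94 to 29.9 FPKM, and Fbn2 from 0.0537 to 1.33 FPKM. The vehicle mean of Fbn2 was below the filter, so its place among the tested genes may rest on the groups in which it was high. Ltbp3, a relative of Ltbp1, fell from 30.3 to 17.5 FPKM (−0.78 ± 0.21; adjusted p = 0.0148). Ltbp4, named here after its values were seen, fell from 115 to 29.9 FPKM (−2.11). The family of Ltbp1 thus did not move one way: Ltbp1, Ltbp3 and Ltbp4 fell and Ltbp2 rose (1.81).

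Among receptors, Acvrl1 and Eng, the endothelial type I receptor and co-receptor, rose by 0.96 and 1.68 on the log2 scale, from 12.7 to 25.7 and from 13.3 to 43.2 FPKM. Acvr1b, an activin type I receptor, rose by 0.71, and Bambi, a decoy receptor, by 1.17 from a low 0.248 FPKM. Smad3, the signal-carrying Smad, stood at 21.1, 22.2 and 29.0 FPKM in vehicle tumours and 10.5, 10.9 and 13.8 FPKM in the combination, without overlap (−1.0 ± 0.18; limma, adjusted p = 0.00743). Smad4, its partner, fell by 0.45, from 35.4 to 25.8 FPKM. The share of all genes lying wholly below vehicle was not computed, so nothing is read from the lack of overlap for Smad3. The inhibitor that rose was Dcn, the proteoglycan decorin, from 100 to 335 FPKM.

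Among target genes, Postn, the matrix protein periostin, stood at 1.39, 2.20 and 19.4 FPKM in vehicle tumours and 255, 272 and 294 FPKM in the combination (log2 difference 5.87 ± 1.29; limma, adjusted p = 0.0103). Tagln, a contractile protein gene, rose by 3.14 and Cdkn2b, a cell cycle inhibitor, by 1.56. Snai2, a transcription factor of epithelial-mesenchymal transition, fell by 0.89, from 14.6 to 7.99 FPKM. Postn and Tagln are also known as markers of fibroblasts and smooth muscle cells.

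**Figure D3:**
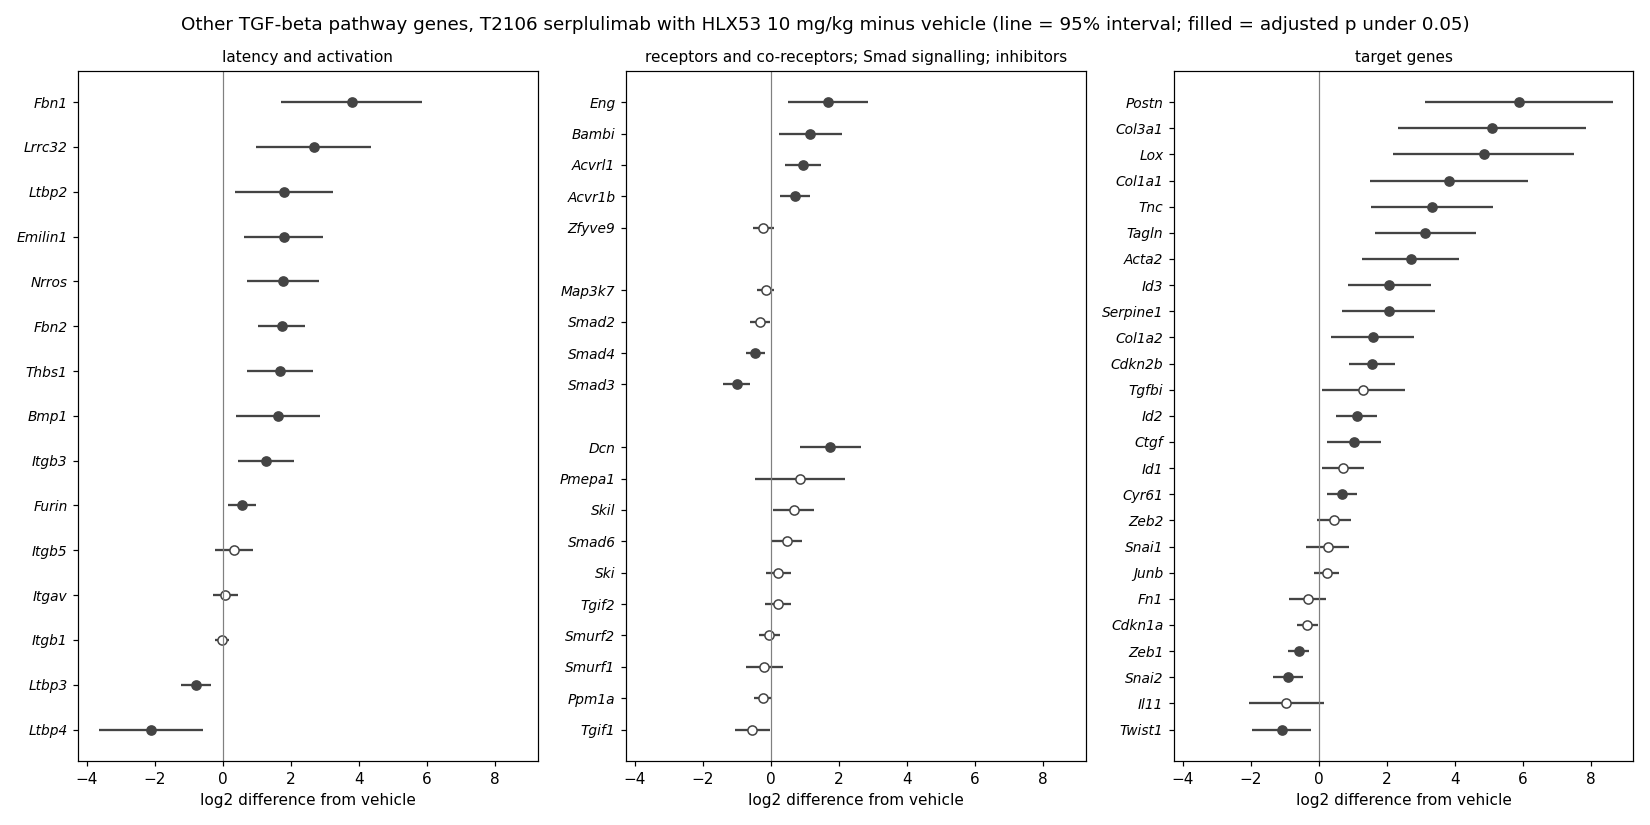
Log2 difference between serplulimab with HLX53 at 10 mg/kg and vehicle in T2106 for the 59 other pathway genes tested, by role (line, 95% interval; filled, limma adjusted p under 0.05). Matrix target genes such as Postn at 5.87 lie farthest to the right, while Ltbp4 at −2.11 and Smad3 at −1.0 lie to the left of 0.

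Other comparisons called fewer pathway genes. The combination had 22 higher and 7 lower of 59 against HLX53 alone, where 18.1% of all genes were higher and 8.69% lower. It had 27 higher and 7 lower against pembrolizumab with tiragolumab, where 25.8% were higher and 16.8% lower, with Smad6, an inhibitory Smad, higher in both (0.92 and 0.74). Against serplulimab alone 1 gene passed, Fbn2 at 1.42, and the count was 29 without the 5 mg/kg tumour with muscle transcripts. Fbn2 may have met the filter only through groups in which it was high, so its call is given as a description. The 5 mg/kg combination against vehicle had Cyr61, a matrix-associated target, higher by 1.18 (limma, adjusted p = 0.0258) and Smad3 lower, at −0.91 (0.0431). Between the doses 0 passed, as in all 13 comparisons of T2215 and for the single antibodies and pembrolizumab with tiragolumab against vehicle in T2106.

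Marker lists of cell types moved with these results, beside a background of 23.4% of all genes higher and 20.6% lower. In the combination at 10 mg/kg against vehicle of T2106, 10 of 10 macrophage markers rose (summed level 2750 to 4920 against 968 to 1400 FPKM), as did 9 of 9 tested adipocyte markers (1010 to 1200 against 47.3 to 243), 6 of 10 endothelial markers (170 to 235 against 52.7 to 103) and 8 of 10 fibroblast markers, with Cd34 lower (613 to 715 against 455 to 527). T cell markers had 3 higher of 10, a share near that background (53.0 to 135 against 28.6 to 39.4). Of 10 keratinocyte markers listed, 4 were tested and 3 were higher (9.28 to 9.70 against 1.33 to 1.97). Keratinocyte markers were low outside the combination tumours. Those tested may have met the filter only through the combination tumours, so this count is a description. All 10 dividing-cell markers fell (313 to 628 against 861 to 876). No muscle marker passed (2.96 to 4.52 against 4.01 to 5.60). Their part in the members' results was not tested.

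With the fibroblast score as a covariate, an alternative chosen after seeing the data, 0 members passed in the comparisons of the 10 mg/kg combination with vehicle, HLX53 or pembrolizumab with tiragolumab. The fitted differences from vehicle became 0.44 for Ltbp1 and −0.29 for Tgfbr2, the opposite sign. With the adipocyte score they were 0.49 and −0.23, again with 0 members passing. Tgfb3 kept its sign, at −0.72 and −0.70, without passing. The scores moved with the treatment, and the 2 cannot be told apart in these fits.

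Across the 27 tumours of T2215, where no comparison called a member, the members' levels were related to each other. Of 28 pairs of members, 10 had an adjusted permutation p under 0.05 (6 positive, 4 negative). The first principal component of T2215 held 47.2% of the variance, so many genes vary together there. The share over other pairs of genes was not computed, and nothing particular to the members is read from the count. Ltbp1 and Tgfbr2 had Pearson's r = −0.905 and Spearman's rho = −0.784 (adjusted permutation p = 9.33e-05; 100000 resamples, two-sided, with 1e-05 the smallest unadjusted p they can give). With the 2 tumours farthest from the median left out, r was −0.831, with deviations from group means −0.915, and without the 3 tumours with muscle or keratinocyte transcripts −0.913. The relation was thus present within groups.

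Tgfb2 followed Tgfbr2 (r = 0.865, rho = 0.621; 0.759 without the 2 farthest tumours) and opposed Ltbp1 (r = −0.839, rho = −0.527; −0.705). Tgfb2 reached 0.5 FPKM in only 6 of the 27 tumours, so its relations here and with the marker scores involve mostly values below the filter. Tgfb1 followed Tgfbr2 (r = 0.764, rho = 0.624; 0.507) and opposed Ltbp1 (r = −0.753, rho = −0.423; −0.385). Tgfbr3 followed Smad7 (r = 0.771, rho = 0.618; 0.720). The relation of Tgfbr1 with Tgfbr2 (r = 0.543) rested on the 2 farthest tumours, since r was 0.087 without them. Tumours in T2106 were unevenly spread on the first principal component, with most low and a few high, so no pooled correlation is given there.

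**Figure D4:**
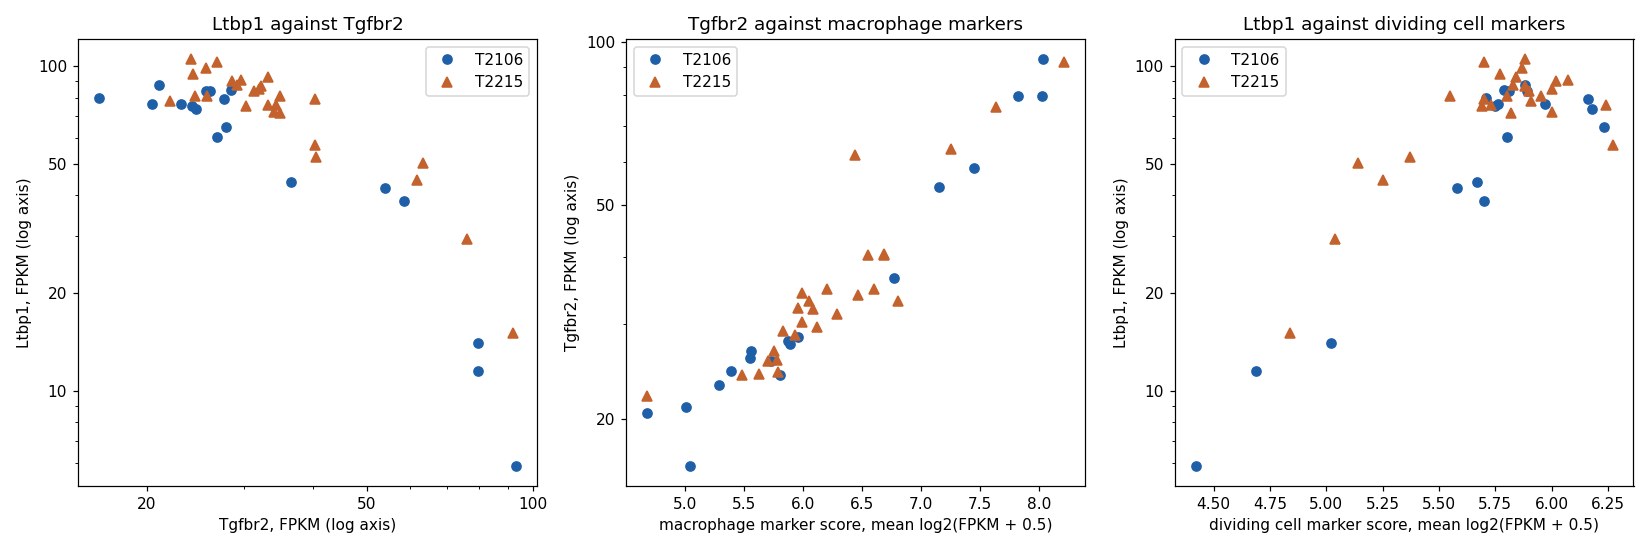
Left, Ltbp1 against Tgfbr2 (FPKM, log axes); middle, Tgfbr2 against the macrophage marker score; right, Ltbp1 against the dividing-cell marker score, with 1 point per tumour (T2106 blue circles, T2215 orange triangles). Tumours low in Ltbp1 are high in Tgfbr2 in both experiments, with r = −0.905 over the 27 tumours of T2215.

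The members also tracked the marker scores. Of 64 relations between 8 members and 8 scores over the 27 tumours, 31 had an adjusted permutation p under 0.05 (17 positive, 14 negative). The share of such relations over other genes was not computed either. Tgfbr2 followed macrophage (r = 0.909, rho = 0.920; 0.819 without the 2 farthest tumours), endothelial (r = 0.903), fibroblast (r = 0.884) and adipocyte (r = 0.803) scores. Tgfb2 followed the endothelial (r = 0.898) and fibroblast (r = 0.874) scores and opposed the dividing-cell score (r = −0.861). Tgfb1 followed the macrophage score (r = 0.845).

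Ltbp1 had the opposite pattern, with r = −0.834 for the endothelial, −0.831 for the macrophage and −0.779 for the fibroblast score. Its relation with the dividing-cell score (r = 0.765, rho = 0.402) was weaker by rank, and r was 0.506 without the 2 farthest tumours. Tgfb3 had no relation under the threshold among 8. Smad7 had 1, with macrophages (r = −0.495), and Tgfbr1 had 1, with dividing cells (r = −0.444), which was 0.049 without the 2 farthest tumours. The scores and the members come from the same libraries and share their normalisation.

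**Figure D5:**
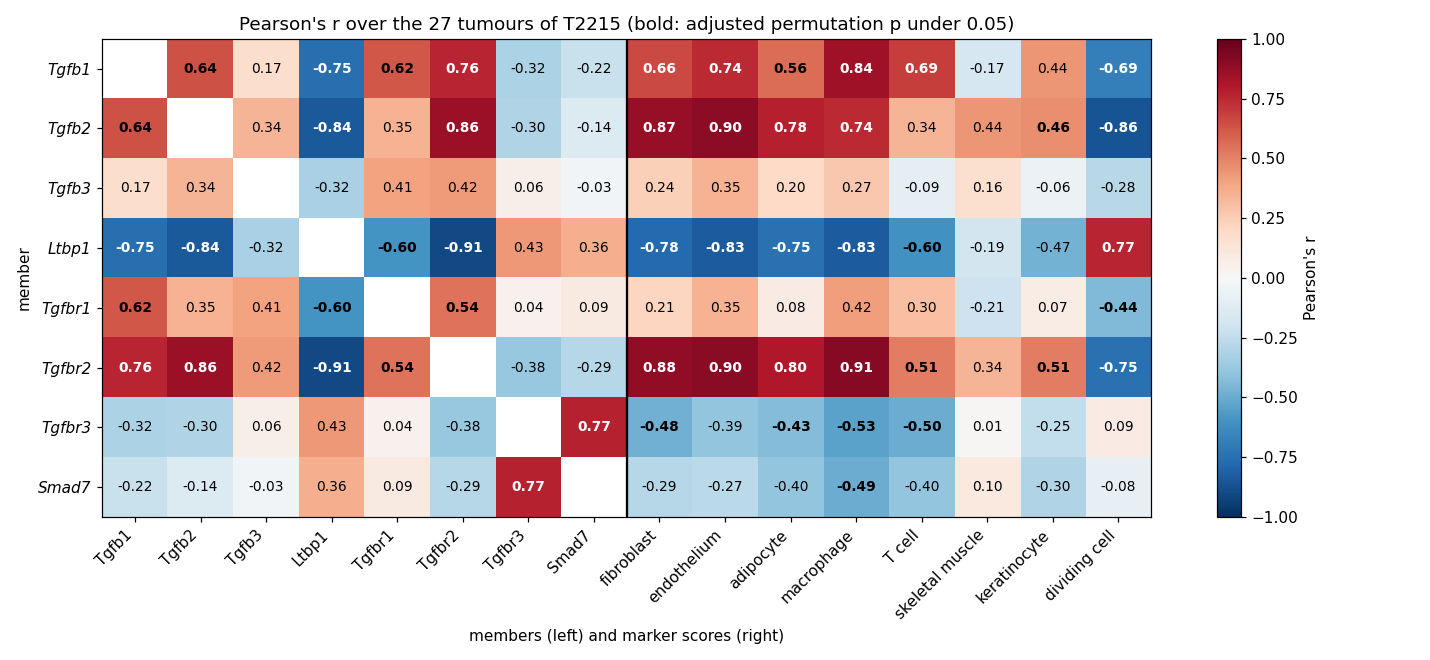
Pearson's r over the 27 tumours of T2215 between the 8 tested members (left of the line) and with the 8 marker scores (right), bold where the adjusted permutation p was under 0.05. The rows of Ltbp1 and Tgfbr2 have opposite signs, as at −0.831 and 0.909 for macrophages, and Tgfb3 has no bold value among the scores.

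The genes whose pattern over the 27 tumours was most like each member are given as a description without a test. The search covered the genes tested, leaving out the members, symbols of Gm with a number and symbols ending in Rik. For Ltbp1 they were Cyp2c55 (r = 0.971) and Ercc1 (r = 0.969). For Tgfbr2 they were B3galnt1 (r = 0.964) and Bmp1 (r = 0.962), the latter a protease of the matrix and of latent complexes. Tgfb2 was most like Rnf150 (r = 0.975) and Peg13 (r = 0.950), and Tgfb1 most like Csf2rb (r = 0.915), a cytokine receptor subunit of myeloid cells, and Gnai2 (r = 0.910). Smad7 was most like Mex3d (r = 0.878) and Vegfa (r = 0.871), Tgfbr3 like Utrn (r = 0.880) and Fam160a2 (r = 0.856), and Tgfbr1 like Xpr1 (r = 0.861) and Spred1 (r = 0.858). Tgfb3 had the weakest nearest genes, Nt5e (r = 0.676) and Rmnd5a (r = 0.661).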

How the data were processed

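Total RNA of each tumour was extracted with a Qiagen RNeasy kit and sequenced on an MGISEQ-2000RS, per the labels' protocols. STAR, Bowtie, Trimmomatic and FastQC are listed, per the submitters' processing notes, beside the builds mm10, hg19 and GRCh37. Their roles, the quantifier and the annotation are not given in the sources used here. Values were deposited by the authors as 2 tables of log2 FPKM per gene. These were turned back into FPKM, and log2(FPKM + 0.5) was analysed. Genes at 0.5 FPKM or more in at least 3 tumours were kept, 15070 for T2106 and 14914 for T2215. All groups of an experiment entered a fit of their own in limma 3.58.1 (R 4.3.3; lmFit, contrasts.fit, eBayes with trend). P-values were adjusted by Benjamini-Hochberg over all genes tested, with a threshold of 0.05, in 22 comparisons. Correlations used log2(FPKM + 0.5) with 100000 permutations (scipy 1.17.1), adjusted over all pairs of a family. Where a symbol had 2 entries, the one with the higher mean was used.

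On data simulated from T2106, serplulimab minus vehicle, with 15070 genes, the fit recovered 57.5% of genes changed by 1 on the log2 scale and 91.0% of those changed by 2. In the simulation genes varied independently and the spread of each was capped. These shares therefore do not hold for genes more variable than the cap, such as Ltbp1. The members and lists were chosen with earlier results of these data known. All 9 members are named, and of other pathway genes up to 4 per role that passed with the smallest p. Coordinates are from GENCODE on GRCm38. No Smad7 sequence is shown, and Tgfb3 and Tgfbr3 had no entry in the RefSeq promoter table. Alternatives tried were the pseudocount, the filter, median centring, only the groups compared, a replicate block, leaving out tumours and marker-score covariates.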

Additional observations from a re-analysis of the deposited data

How the results depend on the processing

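The 4 member calls of the 10 mg/kg combination against vehicle kept their direction under other pseudocounts, filters, centring, the replicate block and left-out tumours. In this section no count of members or pathway genes has the share of all genes under the same setting beside it. Nothing particular to either is read from these counts. With no filter on low values, the counts of members passing were 0 against vehicle, 0 against HLX53 and 3 against pembrolizumab with tiragolumab, and those of other pathway genes 18, 6 and 19, with 0 against serplulimab and 0 for the 5 mg/kg combination against vehicle. The pathway count against serplulimab was 0 with a pseudocount of 0.1, with a filter of 1 FPKM, with the replicate block, and with only the groups compared. For 5 mg/kg against vehicle it was 1 with centring, 1 with the replicate block and 0 with only the groups compared. Replicate numbers did not pair tumours: the median correlation of same-numbered deviations was −0.03 in T2106 and −0.04 in T2215, and own numbers correlated best in 5 of 18 and 4 of 27 tumours. With the replicate block 1 member passed against HLX53, and 4 still passed against vehicle. Without the 5 mg/kg tumour with muscle transcripts, added after seeing the data, 5 members passed against HLX53, and 5 members and 29 pathway genes against serplulimab.

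With the fibroblast covariate members and pathway genes passing were 0 in the comparisons of the 10 mg/kg combination with vehicle, HLX53, and pembrolizumab with tiragolumab, pathway genes were 0 against serplulimab, and 1 passed for serplulimab and 1 for 5 mg/kg against vehicle. Signs reversed for Ltbp1 (0.44, 0.51 and 0.63 against vehicle, HLX53, and pembrolizumab with tiragolumab), Tgfbr2 (−0.29, −0.40 and −0.23), Tgfb2 (−0.71) and Tgfbr1 (−0.21). With the adipocyte covariate the counts were likewise 0, and 1 for 5 mg/kg against vehicle, with Ltbp1 at 0.49, 1.0 and 0.93, Tgfbr2 at −0.23, −0.63 and −0.33, Tgfb2 at −0.84 and Tgfbr1 at −0.22. The cause was not tested.

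Leaving out 1 tumour at a time gave 0 to 6 members against vehicle, 0 to 4 against HLX53, 1 to 6 against pembrolizumab with tiragolumab, 0 to 3 against serplulimab, 0 to 4 between doses and 0 to 4 for 5 mg/kg against vehicle. Pathway genes ranged over 3 to 39, 0 to 36, 14 to 37, 0 to 24, 0 to 27 and 0 to 33 in the same order, and 0 to 2 for serplulimab against vehicle in T2215, where the 2 arose without serplulimab replicate 2. Centring moved the split of all calls from 53 higher and 101 lower to 62 and 18 for 5 mg/kg against vehicle, and from 3888 and 2526 to 3570 and 3492 against pembrolizumab with tiragolumab. Relations among members under the threshold numbered 10, 16 with deviations from group means and 13 without the 3 tumours with muscle or keratinocyte transcripts. Read depth is unknown, so no limit of detection could be given for Itgb8 or Tgfb2.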
